A study of Rattus norvegicus with 10 samples.

Results

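The cytosolic ribosomal proteins are the protein components of the ribosomes that translate nuclear messages. Their genes were followed in the hippocampus of male Sprague-Dawley rats weighing 200 to 240 g at the start of the study. The genes were taken by symbol: those that begin with Rpl or Rps and a digit, with Rpsa, Rplp0, Rplp1 and Rplp2 and without the Rps6k kinases. This gave 84 genes on 96 rows of the table, out of 23824 genes or unnamed rows in all, after rows of the same symbol had been summed in each library. There were 49 genes of the large subunit and 34 of the small subunit. Among the latter Rps25 is counted by itself and again as a row shared with its neighbour Trappc4. The remaining gene, Rps19bp1, fits the symbol rule but encodes a protein that binds Rps19, and it was placed in neither subunit. Poly-A RNA was sequenced in 5 libraries from sham-operated rats and 5 from rats with a traumatic brain injury (TBI), 1 week after surgery. Fluid percussion, a pulse of fluid onto the exposed dura, caused the injury, and a learning test came before the tissue was taken. No genetic change or further agent is given for either group, and the labels do not say outright whether each library came from its own rat. Tests below therefore speak of the spread between libraries. Values are FPKM, fragment counts scaled to transcript length and to the fragments mapped in a library. Levels of different genes are set side by side only as listed, since near-identical copies make single values in this family uncertain. The read depth behind them is unknown.

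Each ribosome is built from a small subunit, which holds the messenger and reads its codons, and a large subunit, which joins the amino acids. Cells keep the supply of the proteins of both subunits matched, since a protein left without its partners is degraded. Messengers of these proteins begin with a run of pyrimidines, the 5′ terminal oligopyrimidine (TOP) tract, through which the kinase mTOR and the binding protein Larp1 control their translation. In neurons, local translation in dendrites and axons serves synaptic plasticity, and ribosomal protein messengers are found there.

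The start sites of a few of these genes are shown first because the tract is the sequence feature for which the family is known. RefSeq promoter windows of the GRCr8 build were matched by symbol for 65 genes of the 2 subunits, giving 66 windows. Each line runs from 20 bases before to 20 bases after the annotated start, on the gene's own strand, and capitals mark CTTTCC or CTTTTC. The marked letters are not the tract itself. In Rpsa they lie before the annotated start, and the run of pyrimidines in Rpl22 is unmarked. Rplp1, Rps15 and Rpsa had high levels here, Rps10 is the gene with the smallest p, Rps14 and Rpl35a were listed near 0, and Rpl41 had the highest level of all. Rps27 with Rps27l and Rpl22 with Rpl22l1 are pairs of related genes.
Rplp1, chr8:71290853-71290892, minus strand: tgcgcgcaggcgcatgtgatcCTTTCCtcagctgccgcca
Rps15, chr7:10068096-10068135, minus strand: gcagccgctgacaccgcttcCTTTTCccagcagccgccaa
Rpsa, chr8:128728859-128728898, plus strand: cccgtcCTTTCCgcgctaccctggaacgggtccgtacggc
Rps10, chr20:5700725-5700764, minus strand: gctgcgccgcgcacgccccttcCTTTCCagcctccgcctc
Rps14, chr18:56498240-56498279, plus strand: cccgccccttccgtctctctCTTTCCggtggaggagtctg
Rpl35a, chr11:81235002-81235041, minus strand: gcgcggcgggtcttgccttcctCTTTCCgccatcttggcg
Rpl41, chr7:1563478-1563517, minus strand: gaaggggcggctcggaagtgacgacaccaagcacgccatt
Rps27, chr2:177964587-177964626, minus strand: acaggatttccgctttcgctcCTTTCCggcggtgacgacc
Rps27l, chr8:76443638-76443677, plus strand: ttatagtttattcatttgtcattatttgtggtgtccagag
Rpl22, chr5:168117941-168117980, plus strand: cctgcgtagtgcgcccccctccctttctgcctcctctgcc
Rpl22l1, chr2:113683176-113683215, plus strand: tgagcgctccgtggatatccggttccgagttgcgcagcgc

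Within 20 bases either side of the start, on the sense strand, CTTTCC or CTTTTC stood in 25 of 66 windows of ribosomal protein genes (37.9%). Among 33469 windows of all genes it stood in 3.12%, among 21851 windows of protein-coding genes in 3.25%, and among 68 windows of mitochondrial ribosomal proteins in 3 (4.41%). The share was 38.5% for the large subunit (15 of 39) and 37.0% for the small subunit (10 of 27). Rps14 and Rpl35a carry the same letters as Rplp1 although their listed levels were near 0. The letters were found in 18 of 35 windows of genes at 10 FPKM or more and in 7 of 31 below. The latter include both windows of Rps27a and those of other genes listed near 0. Over the whole 300 bases and on both strands, CCGGAAG, a core of ETS factor sites, stood in 19 of 66 windows (28.8%, against 8.75% of all windows). It stood in 10.7% of protein-coding windows and in 21 of 68 windows of mitochondrial ribosomal proteins (30.9%), a share like that of the family. GGGCGG, an Sp1-type motif, stood in 39 (59.1%, against 33.1% of all, 41.8% of protein-coding and 44.1% of mitochondrial ribosomal windows). AAGATGGC, a YY1-type motif, stood in 5 (7.58%, against 3.17% of all and 3.67% of protein-coding windows). Among mitochondrial ribosomal windows it was more frequent, at 16 of 68 (23.5%). TATAAA stood in 8 (12.1%, against 14.2% of all, 13.0% of protein-coding and 13.2% of mitochondrial ribosomal windows). At 10 FPKM or more and below, CCGGAAG stood in 7 and 12 windows, GGGCGG in 20 and 19, AAGATGGC in 2 and 3 and TATAAA in 4 and 4. No relation of a motif to level was tested. Matches describe the letters of these windows. They show no binding, and neither a match nor its absence decides whether a messenger has a TOP tract.

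Listed levels of the 84 genes covered a very wide range. A mean of at least 100 FPKM over the 10 libraries was reached by 25 genes, 21 lay between 10 and 100, 24 between 0.5 and 10, and 14 below 0.5. The median was 22.5 FPKM for large subunit genes and 7.50 for small subunit genes. Rpl41, a very short basic protein of the large subunit, was highest. Its values were 484, 609, 450.3, 491 and 567.8 FPKM in sham 1 to sham 5, and 515, 434, 518, 449.6 and 537 in TBI 1 to TBI 5. Among the small subunit genes Rps2, which lies at the messenger entry channel, was highest, at 569.9, 462, 486, 545 and 503 FPKM in sham 1 to 5 and at 448, 571, 492.8, 374 and 457 in TBI 1 to 5. The lowest value of Rps2 was in TBI 4 and the highest in TBI 2, and the groups overlapped in both genes. Next in the large subunit came Rpl37a (mean 466.1), Rpl23a (448), which sits by the exit of the peptide tunnel, and Rpl3 (322), which lies near the peptidyl transferase centre. In the small subunit Rps16 (473) and Rps15 (253) followed Rps2. The 5 highest genes made up 42.0% of the summed FPKM of the large subunit and 73.1% of that of the small subunit.

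**Figure D1:**
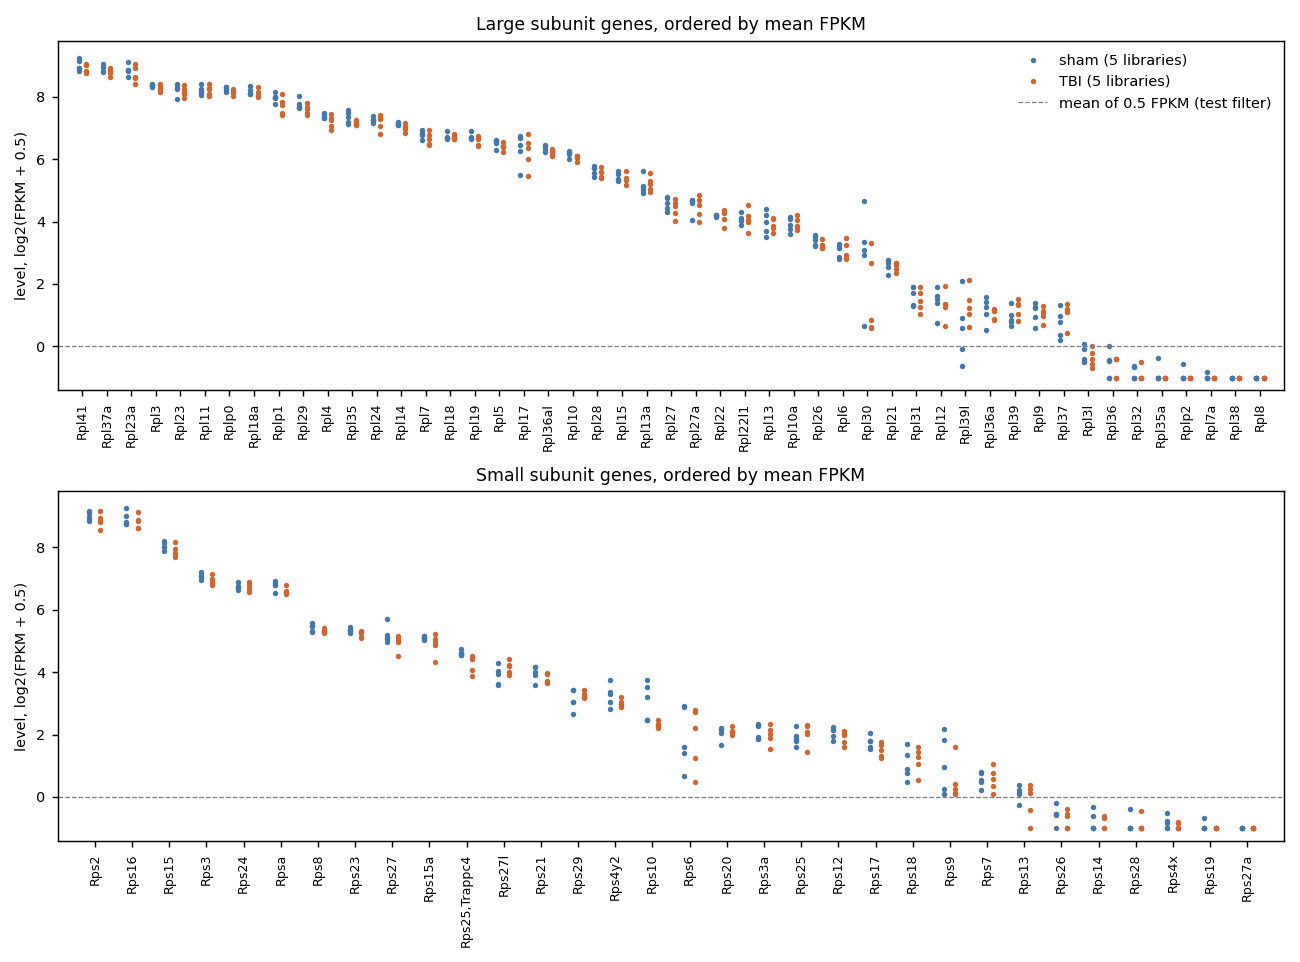
Level of each of 49 large subunit genes (top) and 32 small subunit genes (bottom), ordered by mean FPKM, on a log2(FPKM + 0.5) axis; each point is 1 library, blue for sham and orange for TBI, and the dashed line marks a mean of 0.5 FPKM. Levels run from a mean of 506 FPKM in Rpl41 to genes listed at 0, and the points of the 2 groups mostly lie on top of each other.

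At the other end stood genes that every cell uses. Rpl8, Rpl38 and Rps27a, which encodes a fusion of ubiquitin and a small subunit protein, were listed at 0 in all 10 libraries. Rps19, a protein needed for maturation of the small subunit, was listed at 0 in all but sham 4 (0.131 FPKM), Rpl7a in all but sham 4 (0.0694) and Rplp2 in all but sham 2 (0.170). Rpl35a was listed at 0 in all but sham 4 (0.268). Rps14, Rps26, Rps28, Rps4x, Rpl32 and Rpl36 were at 0.519 FPKM or less in every library and at 0 in some. The last gene below the filter, Rpl3l, a muscle form of Rpl3, was at 0.121 to 0.555 FPKM. These 14 genes, 8 of the large and 6 of the small subunit, were not tested. The rows of these genes had status OK in every library. Whether a listing at 0 is nonetheless a failed estimate was not tested, so nothing is read from it about expression.

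Many ribosomal protein genes have processed pseudogenes, near-identical copies that can take reads from the parent gene or give reads to it, so single values are uncertain. In RefSeq (GRCr8), 81 of the 84 genes were matched by symbol, with 891 entries named as their pseudogenes. The number of such entries did not order the listed levels: across the 81 genes, which share the same libraries, Spearman's rho was 0.0099, given as a description. The median number of entries was 9 for matched genes below the filter and 11 for those at 100 FPKM or more. Rps2, with 36 entries, was the highest of the small subunit, while Rps27a, with 29, was listed at 0. How reads of copies were assigned is not given in the sources used here, and its part in the levels was not tested.

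Injured and sham hippocampus were compared to see whether ribosomal protein messengers differ 1 week after TBI. Most genes had a slightly lower mean after TBI, and none passed the test. The test was limma over 16194 genes or unnamed rows with a mean of at least 0.5 FPKM, on log2(FPKM + 0.5), and of the 84 genes 70 passed this filter. Of these, 0 passed an adjusted p of 0.05 (limma, Benjamini-Hochberg over all rows tested, smallest adjusted p of a member 0.983), as did 0% of all rows. Before adjustment 2 had a p under 0.05 and a lower value after TBI, beside 1.51% of all rows, and 0 had one with a higher value, beside 1.41%. A lower mean log2 value after TBI was seen in 57 genes and a higher one in 13, while 49.6% of all rows were lower and 50.4% higher. The median log2 difference (TBI minus sham) was -0.11 for the 70 genes and 0.0013 over all rows tested. The median half-width of the 95% interval of a gene was 0.27, which describes single genes and not the error of the list's median.

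Rows at 100 FPKM or more, which include 25 of these genes, leaned the same way. Of the 841 rows at 100 FPKM or more, 73.8% had a lower mean after TBI, with a median log2 difference of -0.064. The 25 ribosomal protein genes at that level had a lower mean in 24 and a median of -0.12. Rows of 10 to 100 FPKM were lower in 58.2%, beside 17 of 21 ribosomal protein genes, and rows of 0.5 to 10 FPKM in 40.8%, beside 16 of 24. Whether the ribosomal protein genes differ from other rows of their level was not tested. The median of the 70 genes was -0.065 without TBI 3, with 52 lower, and between -0.14 and -0.092 with any other single library left out. Without sham 4, TBI 1 and TBI 3 together, a set chosen after seeing the data, it was -0.072, with 47 lower.

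**Figure D2:**
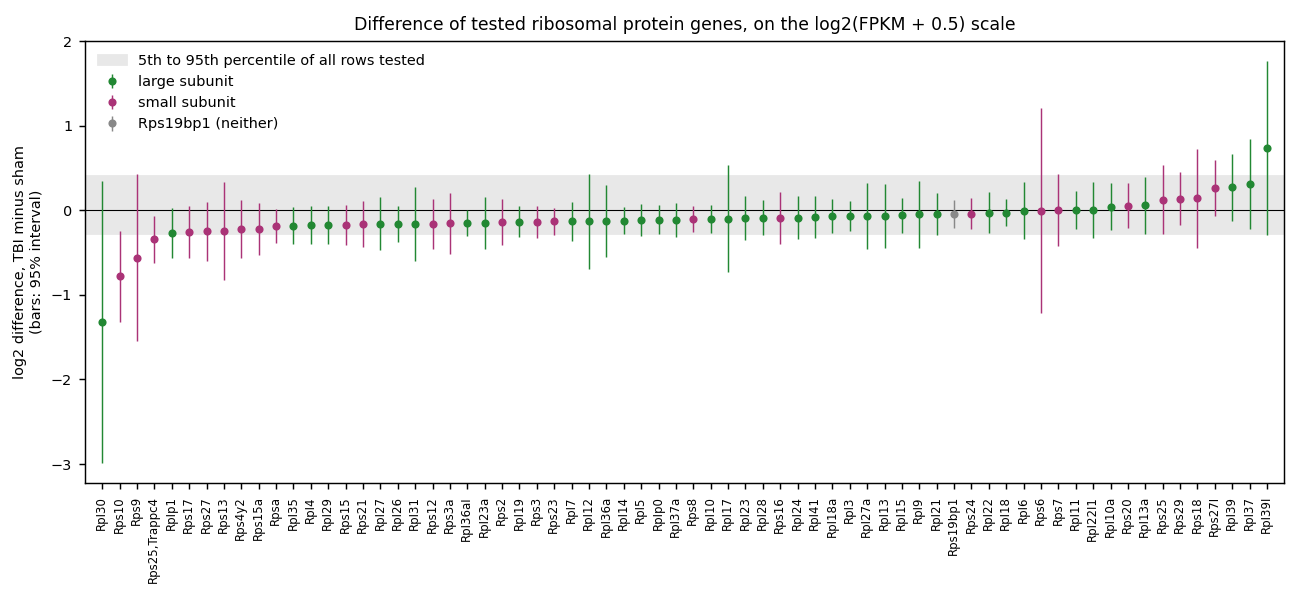
Log2 difference, TBI minus sham, of 68 tested genes, ordered by size, with 95% intervals; green marks the large subunit, purple the small subunit, and the grey band spans the 5th to 95th percentile of all rows tested. Most points lie just below 0 and all but 2 intervals include 0.

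Most genes of both subunits had lower means after TBI, and the difference between the subunits' medians was not tested. Of 41 tested large subunit genes 34 were lower after TBI, with a median log2 difference of -0.090. Of 28 tested small subunit genes 22 were lower, with a median of -0.14. With array weights the medians were -0.054 and -0.16, and without TBI 3 they were -0.048 and -0.098. The summed FPKM of the large subunit was 4906, 5243, 4769, 4880 and 5357 in sham 1 to 5 and 4681, 4511, 4294, 4696 and 5174 in TBI 1 to 5. Its mean was 5031 ± 254 in sham and 4671 ± 325 in injured ones (SD, n = 5), and TBI 5 lay above 3 of the sham libraries. For the small subunit the sums were 2182, 2225, 2244, 2227 and 2479 in sham and 2078, 2099, 1977, 2021 and 2278 after TBI. The mean was 2271 ± 118 in sham and 2090 ± 115 in injured ones (SD, n = 5), with TBI 5 above all sham libraries but sham 5. Both sums were therefore lower on average, by 7.15% for the large and 7.97% for the small subunit, with overlapping groups. The ratio of large to small kept within a narrow range, from 2.13 in sham 3 to 2.36 in sham 2. It was 2.22 ± 0.0902 in sham and 2.23 ± 0.0721 after TBI, a difference smaller than the spread of either group. These sums lean on the few highest genes and no test was made of them.

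**Figure D3:**
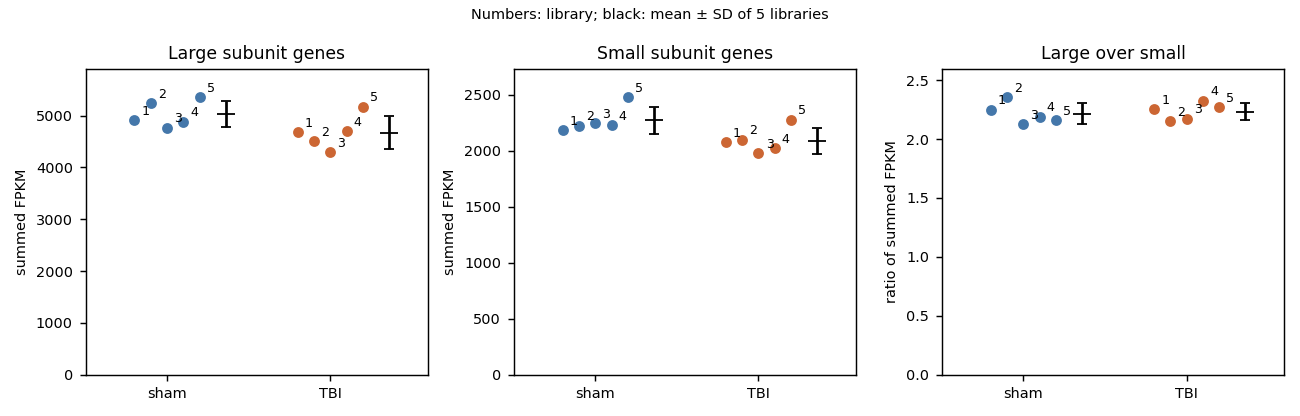
Summed FPKM of large subunit genes (left), of small subunit genes (middle) and their ratio (right) in each library, numbered within its group; black marks show the mean and SD of 5 libraries. TBI 3 is lowest and sham 5 highest in both sums, and the ratio lies between 2.13 and 2.36 throughout.

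The family also varied between libraries of one group. TBI 3 was lowest: only 16 of the 70 tested genes stood above their own median there, and the median deviation from each gene's mean was -0.16 on the log2 scale. Sham 2 (54 of 70 above, deviation 0.13) and sham 5 (53 of 70, 0.11) were highest. Sham 1 stood at 0.055, sham 3 at -0.018 and sham 4 at 0.0031. Among the injured libraries TBI 5 stood at 0.044, TBI 4 at -0.018, TBI 1 at -0.047 and TBI 2 at -0.052. Over all rows the same median stayed between -0.035 and 0.024 in every library. This median over all rows sums rows that move either way, so it is no measure of how far a single row moves. The groups overlapped in the family's median deviation, with TBI 5 above sham 3 and sham 4. Within the small subunit alone they did not overlap. The medians ran from 0.010 to 0.12 in sham and from -0.13 to -0.0061 after TBI. Sham 1 (0.010) and TBI 5 (-0.0061) lay close together, and the summed FPKM of the small subunit did overlap. How often other gene lists part the groups in this way was not tested. Within the large subunit the medians ran from -0.041 to 0.15 in sham and from -0.17 to 0.081 after TBI.

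**Figure D4:**
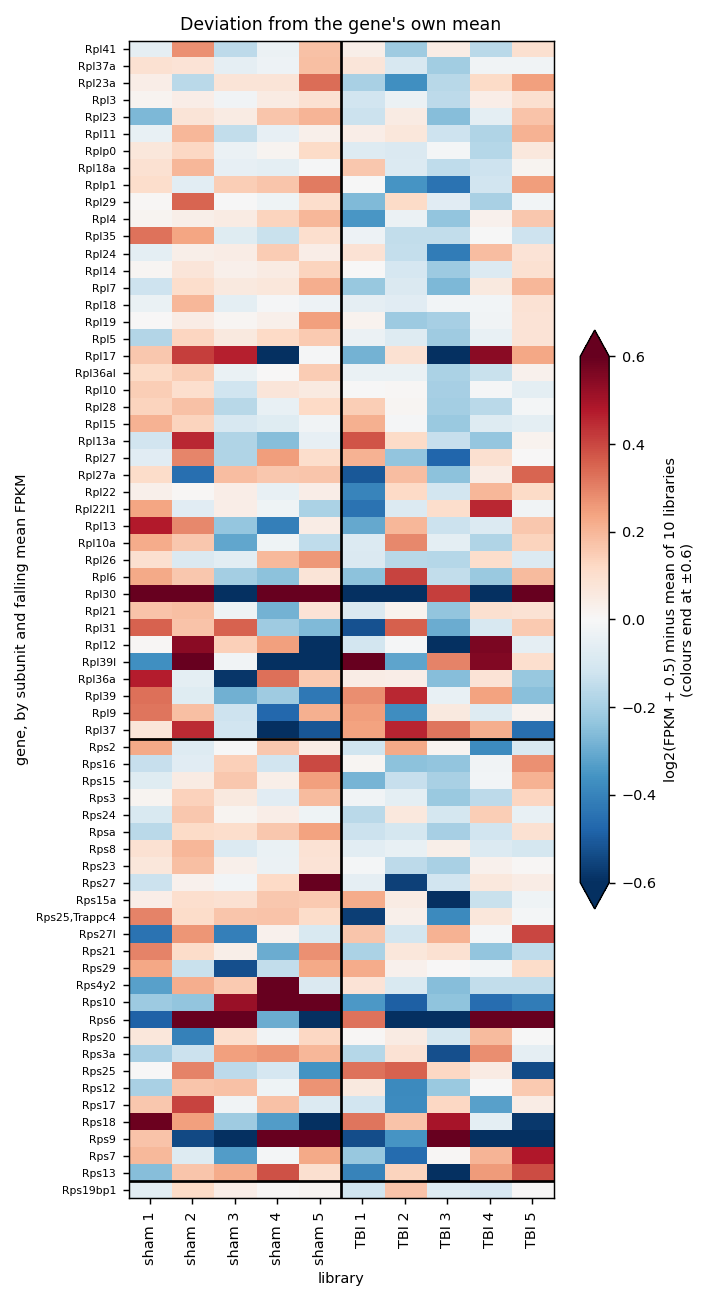
Deviation of each of 68 tested genes (rows, by subunit and falling mean FPKM) from its own mean over the 10 libraries (columns), in log2(FPKM + 0.5), red above and blue below, with colours ending at ±0.6. Abundant genes are mostly pale blue in TBI 3 and pale red in sham 5, while low genes such as Rpl30, Rps6 and Rps9 differ strongly between libraries of 1 group.

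Summed levels of cell type markers differed between these libraries too. Neuronal markers (10 of 10 found, 8 lower and 2 higher in mean after TBI) had summed levels of 3897 to 5075 FPKM in sham libraries and 2690 to 4977 in injured libraries, lowest in TBI 1. Microglia markers (12 of 12 found, all 12 higher in mean after TBI) summed to 334 to 443 FPKM in sham libraries. After TBI they summed to 336 to 576, with the highest value in TBI 3, the library lowest in ribosomal protein genes. The highest sham value, 443, was in sham 5, where the ribosomal protein genes stood high (median deviation 0.11). Endothelial markers (7 of 8 found, 6 lower) summed to 97.2 to 147 in sham and 80.3 to 102 after TBI. Choroid plexus markers (11 of 12 found, 10 of 10 tested higher) lay between 104 and 32791 FPKM in sham libraries and between 149 and 34328 in injured libraries. The 2 libraries with the most choroid plexus signal, TBI 1 and sham 2, stood at -0.047 and 0.13 in the ribosomal protein genes. Matrix and meninges markers (12 of 12 found, 3 of 10 tested higher) summed to 56.9 to 525 in sham and 62.8 to 659 after TBI, with Col1a2 listed at 0 in every library. Astrocyte markers (8 of 8, 6 lower) summed to 2531 to 3738 and 2064 to 3281. Oligodendrocyte markers (8 of 8, 7 higher) summed to 3746 to 6190 and 3513 to 6154, and 2 of 5 blood markers found, both higher, to 3.22 to 21.8 and 7.99 to 24.6. The part of these cells in the ribosomal protein values was not tested. In bulk tissue, fewer cells of a type and less RNA per cell cannot be told apart.

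Within the small subunit Rps10, which lies in the head of the subunit near the messenger, had the smallest p. It was at 5.08, 5.01, 8.79, 10.96 and 13.1 FPKM in sham 1 to 5 and at 4.62, 4.12, 4.9997, 4.23 and 4.35 in TBI 1 to 5. Sham 3, sham 4 and sham 5 were high, sham 1 and sham 2 lay just above the injured libraries, and the groups did not overlap. The log2 difference was -0.78 (SE 0.24, 95% interval -1.32 to -0.24, adjusted p = 0.983 by limma), lower in 5 of 5 injured libraries. RefSeq names 17 pseudogenes of Rps10. The other gene whose groups did not overlap was the row shared by Rps25, a small subunit protein, and its neighbour Trappc4, a vesicle tethering factor. It stood at 26.2, 22.9, 23.9, 24.0 and 23.0 in sham and 14.2, 21.7, 16.2, 22.3 and 21.0 after TBI, with TBI 1 and TBI 3 lowest. Its log2 difference was -0.34 (SE 0.13, adjusted p = 0.983 by limma), and -0.14 without sham 4, TBI 1 and TBI 3. The reads of Rps25 and Trappc4 cannot be separated there, and the row named Rps25 alone, given after its values were seen, was at 3.28 ± 0.653 in sham and 3.67 ± 0.924 in injured ones (SD, n = 5). Groups without overlap and lower after TBI were thus seen at 2 of 70 genes, beside 0.241% of all rows, and at 0 of 70 higher, beside the same 0.241%.

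Rpsa, also the laminin receptor, sits on the back of the small subunit. It was at 92.1, 112, 111, 116 and 122 FPKM in sham libraries and 94.4, 95.9, 89.99, 95.2 and 109.9 after TBI, with sham 1 inside the injured range. Its log2 difference was -0.18 (SE 0.090, adjusted p = 0.983 by limma). Every injured value of Rpsa was under its sham mean, while the groups overlapped. Rps27l was among the few with a higher mean, at 14.6 ± 3.13 FPKM in sham libraries and 17.4 ± 2.48 in injured ones (SD, n = 5, log2 difference 0.26). Rps27, its close relative, was at 37.3 ± 8.40 and 31.1 ± 5.02 (-0.25). Sham 5, at 51.8, and TBI 2, at 22.6, stood apart in Rps27, and its difference was -0.12 without sham 5 and -0.14 without TBI 2. Rps16 was at 488 ± 80.3 and 459 ± 69.8 and Rps15 at 267 ± 23.0 and 239 ± 32.6, and the groups overlapped in each. Among lower genes Rps21 was at 15.3 ± 2.47 and 13.5 ± 1.49, and Rps12 at 3.68 ± 0.518 and 3.25 ± 0.553, each summed over 2 rows. In Rps21 the row XLOC_015113, at 8.87 to 12.0 FPKM in sham and 8.73 to 11.7 after TBI, had no lower mean. Its other row, XLOC_016001, was at 2.61 to 7.98 in sham and 1.73 to 4.91 after TBI.

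The stalk of the large subunit recruits the elongation factors and is made of Rplp0 with the acidic proteins Rplp1 and Rplp2. Rplp1 was at 247, 219.8, 254, 258 and 285 FPKM in sham libraries and 229.7, 179, 169, 212 and 273 after TBI. TBI 2, TBI 3 and TBI 4 were below every sham library, while TBI 5 was above all but sham 5. Its log2 difference was -0.27 (SE 0.13, 95% interval -0.56 to 0.030, adjusted p = 0.983 by limma). Rplp0, the base of the stalk, was at 305 ± 14.1 in sham and 282 ± 17.2 in injured ones (SD, n = 5, log2 difference -0.11). Rplp2 gave no comparison, being listed at 0 in all libraries but 1.

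The other large subunit genes with the smallest p were Rpl36al, Rpl35 and Rpl30. Rpl36al was at 84.2, 86.2, 75.5, 77.8 and 86.4 FPKM in sham libraries and 75.5, 75.5, 68.1, 70.8 and 79.2 after TBI. Injured values were low in TBI 3 and TBI 4, the groups overlapped, and the log2 difference was -0.15 (SE 0.071, adjusted p = 0.983 by limma). Rpl35, near the tunnel exit, was at 191, 179.8, 145, 139 and 163 in sham and 149, 137, 137, 152 and 139.7 in TBI 1 to 5, differing by -0.18 on the log2 scale (SE 0.099). Sham 1, sham 2 and sham 5 were above every injured library, and sham 3 and sham 4 were within their range. Rpl30 differed by -1.32 on the log2 scale, with a 95% interval of -2.99 to 0.34 that shows its spread. It was at 7.10, 9.71, 1.07, 8.07 and 24.6 FPKM in sham libraries and at 1.28, 1.03, 5.94, 1.00 and 9.56 after TBI. Values near 1 FPKM stood in sham 3, TBI 1, TBI 2 and TBI 4, and the highest was 24.5 times the lowest. Rpl17 was at 44.6 FPKM in sham 4 and 43.3 in TBI 3 but at 63.5 to 113 in the other libraries, and Rpl27a at 15.96 in sham 2, 15.4 in TBI 1 and 18.5 in TBI 3 but at 22.8 to 28.2 elsewhere. The sign of the mean difference of Rpl17 and of Rpl27a changed when 1 library was left out.

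Spread between libraries grew as the level fell. The coefficient of variation over the 10 libraries had a median of 10.97% in the 25 genes at 100 FPKM or more, from 5.68% in Rpl3 to 16.4% in Rplp1. It was 14.9% in the 21 genes between 10 and 100 FPKM and 26.1% in the 24 between 0.5 and 10, where Rpl30 reached 104%. Intervals within 0.5 log2 units either way were reached by 24 of 25 genes at the top level and by 8 of 24 at the lowest. The median half-width of a gene's interval was 0.22 at the top level, 0.28 at the middle one and 0.42 at the lowest.

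Related genes that can replace each other in the ribosome were compared within each library. Rpl22 and Rpl22l1, a pair in which the Rpl22 protein is known to lower the Rpl22l1 message, stood at similar levels. Rpl22 was at 17.8 ± 0.455 FPKM in sham libraries and 17.6 ± 2.85 after TBI, and Rpl22l1 at 16.4 ± 1.89 and 16.7 ± 3.89 (SD, n = 5). The ratio of Rpl22l1 to Rpl22 ran from 0.786 to 1.11 over the 10 libraries. Rps27l was at 0.284 to 0.643 of the level of Rps27. Rpl3 exceeded Rpl3l, the striated muscle form, by at least 586 times in every library. Rpl39l, known mainly from testis, was at 0.140 to 3.78 FPKM in sham libraries and at 1.04 to 3.90 in injured ones. Its log2 difference of 0.73, the largest upward one of the family, had a 95% interval of -0.30 to 1.77. It was 1.12 without sham 2 and 0.43 without sham 4. Rpl39 itself was listed at only 1.06 to 2.38. Rpl36al was listed at 33.9 to 80.4 times Rpl36a. Rps4y2 stood at 6.55 to 12.8 FPKM and Rps4x was listed at 0.196 or less, with 5 libraries at 0, so no order is read from that pair. No row was matched for the partners of Rpl7, Rpl10 and Rps10.

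Other parts of the translation machinery were read from the same fit. Of 3 ribosome components outside the symbol rule, all had a lower mean after TBI and 0 passed. Fau, a ubiquitin-like fusion of the small subunit, was at 30.3 ± 4.09 and 28.8 ± 3.94 FPKM, and Gnb2l1 (Rack1), a scaffold on the small subunit, at 110.2 ± 5.83 and 105 ± 3.76 (SD, n = 5). Of 17 tested messengers listed as elongation factors and other TOP genes 11 were lower and 6 higher, with a median log2 difference of -0.015. The smallest p among them belonged to Eif3f, an initiation factor subunit (81.7 ± 5.30 and 74.8 ± 4.18), Eef1b2, a nucleotide exchange factor (102.9 ± 5.47 and 93.6 ± 11.1), and Eef2, the translocation factor (408 ± 22.9 and 374 ± 29.2). These genes, whose start sites were not read here, had a median nearer to 0 than the family's -0.11. The difference between the lists was not tested.

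The lists of ribosome biogenesis genes and of regulators of ribosomal protein messengers had medians near 0. Of 31 tested genes of ribosome biogenesis and RNA polymerase I, 16 were lower and 15 higher, with a median of -0.0033. Dkc1, which modifies ribosomal RNA, was at 26.8 ± 4.72 and 22.4 ± 7.08 FPKM (SD, n = 5), the kinase Riok2 at 8.44 ± 0.593 and 9.32 ± 0.849, and Sbds, a factor of large subunit maturation, at 55.0 ± 2.69 and 51.0 ± 5.72. Of 17 tested regulators 12 were lower and 5 higher (median -0.028). Before adjustment 1 in each direction had a p under 0.05 and after adjustment 0 passed. These were Rps6ka1, a kinase of Rps6, at 4.04 ± 0.379 and 4.95 ± 0.469, and Gabpa, an ETS factor, at 51.8 ± 3.30 and 44.0 ± 6.60. Rheb, the activator of mTOR, was at 92.2 ± 10.6 and 83.8 ± 7.18. The 3 tested assembly partners were Rrs1 (11.3 ± 0.929 and 11.04 ± 2.06), Aamp (71.5 ± 4.42 and 69.0 ± 9.75) and Bccip (22.6 ± 1.26 and 20.4 ± 2.24). All 3 had lower means, with a median log2 difference of -0.060, and 0 passed. Rrs1 is also counted among the 31 biogenesis genes.

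Mitochondrial ribosomal proteins and short messengers of oxidative phosphorylation were read beside the cytosolic ribosomal proteins. Transcript lengths were not compared. Of 67 tested mitochondrial ribosomal protein genes 45 were lower after TBI (median log2 difference -0.049, 0 past adjustment). Mrpl53 was at 54.0 ± 5.65 and 47.2 ± 3.89 FPKM, Mrpl1 at 2.48 ± 0.571 and 1.91 ± 0.280, and Mrps12 at 24.3 ± 3.14 and 20.5 ± 3.56 (SD, n = 5). Of 22 tested short oxidative phosphorylation genes 18 were lower (median -0.080, 0 past adjustment). Cox7b was at 373 ± 65.5 and 287 ± 102, Ndufs5 at 38.0 ± 3.21 and 33.9 ± 4.89, and Ndufb3, the only one with a p under 0.05 before adjustment, at 63.0 ± 13.6 and 49.7 ± 3.64. By library, the short oxidative phosphorylation genes stood at -0.14 in TBI 3 and 0.18 in sham 2, on the same side as the cytosolic ribosomal proteins, but at -0.18 in sham 4 and 0.036 in sham 5. Mitochondrial ribosomal proteins were lowest in TBI 1 (-0.18), where the cytosolic ones stood at -0.047.

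**Figure D5:**
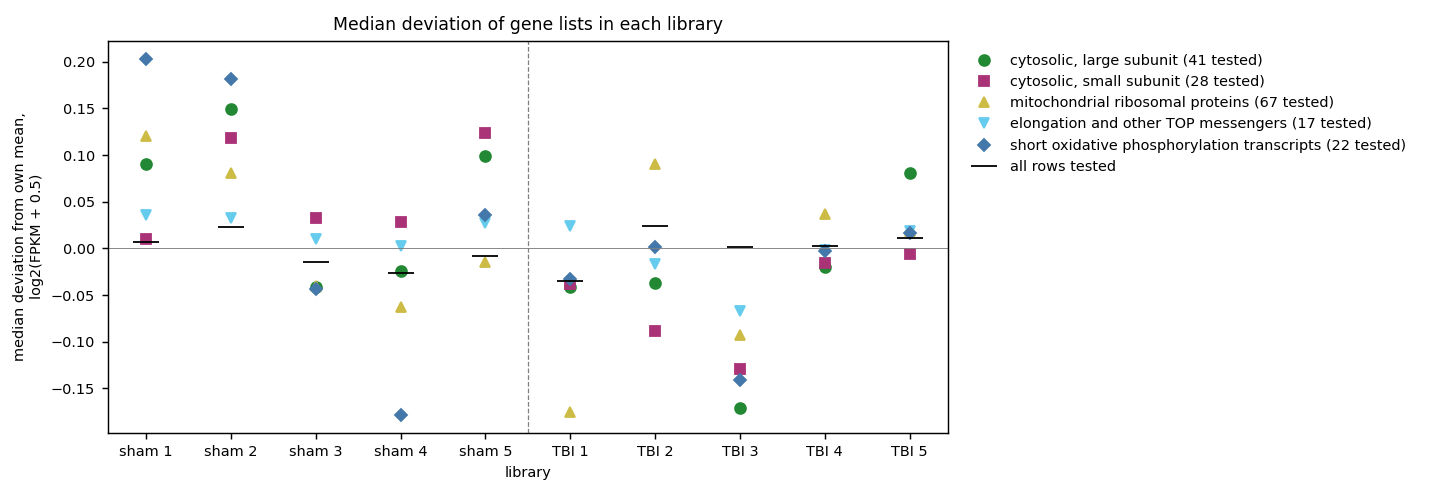
Median deviation of each gene list from the genes' own means, in log2(FPKM + 0.5), for each library; black bars show all rows tested and the dashed line parts sham from TBI. Both cytosolic subunits are lowest in TBI 3 and high in sham 2 and sham 5, while the mitochondrial ribosomal proteins are lowest in TBI 1.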

How the data were processed

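Poly-A RNA libraries of hippocampus, 5 sham and 5 TBI, were sequenced on an Illumina HiSeq, as the labels' protocols state. For every locus the authors deposited FPKM and a status. The rn5 build and the tools Cufflinks, Cuffdiff, Bowtie, Bowtie2, TopHat and TopHat2 are named, without roles or versions, per the submitters' processing notes. Treatment of reads with several matches is not given in the sources used here. Summed FPKM per library ran from 523239 to 629660.

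Here, rows of one symbol were summed per library, leaving 23824 of 25269 rows, and 16194 with a mean of at least 0.5 FPKM were tested. Each of the 96 rows of these genes had status OK in every library. The test was limma 3.58.1 (R 4.3.3), two-sided and with a mean trend, on log2(FPKM + 0.5), using Benjamini-Hochberg adjustment and a threshold of 0.05. It was tested on simulated data. No count test was run. Sequences came from RefSeq GRCr8, which is not the build of the files. Genes named in the text are, per subunit, the 4 highest, the 4 with the smallest p and the 3 with the widest spread at 5 FPKM or more, and also genes without overlap, stalk genes, paralogs, genes below the filter or on several rows, and 3 per other list. Members, lists and rules were chosen with earlier results of these data known. Alternatives covered pseudocount, filter, scaling, variance model, weights, a replicate block, summing, status, shared rows and each library left out. Leaving out libraries in sets was chosen after seeing the data. A few genes that this rule covers are not reported here by name and not drawn, but stay in the fit, sums and counts.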

Additional observations from a re-analysis of the deposited data

Results flagged for a closer look

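Of 74 groups of 5 libraries examined, 5 had 1 library far from the other 4 by Dixon's test, where chance gives about 1 in 20. Sham 2 was at 15.96 FPKM in Rpl27a, with the other sham libraries at 23.8 to 25.2. TBI 2 was at 22.6 FPKM in Rps27, with the others at 31.0 to 35.0. TBI 3 was at 2.56 FPKM in Rps9, with the others at 0.573 to 0.844, and TBI 5 at 0.855 FPKM in Rpl37, with the others at 1.65 to 2.04. Sham 5 had a summed FPKM of the small subunit of 2479, with the other sham libraries at 2182 to 2244.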

How the results depend on the processing

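No ribosomal protein gene passed adjustment under any alternative run. The count over all rows stayed at 0 except without sham 4, alone or together with TBI 1 and TBI 3, where 2 passed (Plac9 and the unnamed XLOC_020489 each time, outside the family). With single libraries left out it ran from 0 to 2. The median of the large subunit stayed between -0.12 and -0.048, that of the small subunit between -0.17 and -0.097 over all alternatives. With single libraries left out the log2 difference of the large to small ratio ran from -0.0032 to 0.034. Apart from libraries left out, the ratio was recomputed only with quantile normalization, with status other than OK set missing and without rows that name several genes. The large and small subunit medians were -0.054 and -0.16 with array weights and -0.061 and -0.097 with quantile normalization. With array weights 49 of 70 members were lower. The count of members with a p under 0.05 before adjustment, 2 as reported, was 8 with array weights, 8 without TBI 5 and 6 without sham 1. Signs of small differences turned as follows: Rps6 at 0.00012 with a pseudocount of 1, 0.0066 at equal sums, 1.12 with rows not summed and 0.022 without sham 4, TBI 1 and TBI 3. In that last fit Rpl3 was at 0.0025, Rpl17 at 0.031, Rpl27a at 0.19 and Rpl22 at 0.11. With array weights Rpl22 was at 0.061 and Rpl36a at 0.11, and at equal medians Rpl22l1 was at -0.012. Without libraries numbered 1 Rpl27a and Rpl22 were at 0.069 each. With rows not summed, only the row with the higher mean was read for each gene. For Rps6 that was XLOC_018713 (1.12), at a mean of 1.96 FPKM beside 1.95 for XLOC_018714, whose difference is not given. For Rps21 it was XLOC_015113 (0.0064), at a mean of 10.1 FPKM beside 4.24 for XLOC_016001. Over single libraries left out the ranges were -0.31 to 0.35 for Rps6, -0.11 to 0.12 for Rpl22l1, -0.31 to 0.097 for Rpl17, -0.19 to 0.050 for Rpl27a and -0.083 to 0.066 for Rpl22. The causes were not tested. Same-numbered libraries did not deviate together (correlations from -0.38 to 0.31, and 1 of 5 matched its own number best). With the replicate block 0 genes passed and 4 instead of 2 members had a p under 0.05 before adjustment. The large subunit median was -0.090 with the block.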

Other observations

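Some genes stood on 2 rows whose values did not move together. Of the 2 rows named Rps6, the phosphoprotein that gives the S6 kinases their name, XLOC_018713 was at 0 to 3.75 FPKM in sham and 0 to 5.01 after TBI, and XLOC_018714 at 0.627 to 6.58 and 0 to 2.08. In sham 2 the rows stood at 0.277 and 6.58 and in TBI 5 at 5.01 and 1.05. The summed Rps6 level ran from 0.881 to 7.05 FPKM, with a log2 difference of -0.0045 and a 95% interval of -1.21 to 1.20. Rps9 was at 0.563 to 4.04 FPKM in sham and 0.573 to 2.56 after TBI over its 2 rows. In Rpl3 and Rpl35 a single row held nearly all of the signal, at means of 321 and 152 FPKM beside 0.639 and 1.41 for the second row. Both rows of Rpl8 were listed at 0. Rpl37 was at 1.23 ± 0.547 in sham and 1.61 ± 0.449 after TBI (SD, n = 5), and its second row was above 0 in TBI 2 only.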
